A study of Mus musculus with 11 samples.

Results

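Acetaminophen (APAP) is cleared mainly as glucuronide and sulfate, and its reactive quinone imine is taken up by glutathione. The enzymes that conjugate glutathione are described here through acute APAP injury of the mouse liver. The genes described here are 10 cytosolic glutathione transferases, taken by name from the gene annotation of the deposited matrices: Gsta1, Gsta2, Gsta3, Gsta4 and Gm3776 of the alpha class, Gstm1, Gstm2 and Gstm3 of the mu class, Gstp1 of the pi class and Gstt1 of the theta class. All 10 were found among the 31053 genes counted. They were measured by Visium, a method in which RNA from a tissue section is captured on a grid of barcoded spots, each of which covers several cells. The 11 liver sections came from the uninjured time point (0 h, sections 2, 3 and 4), and from 24 h (sections A and B), 36 h (A and B) and 48 h (A, B, C and D) after APAP. The labels call the first group uninjured and mark the other groups with an abbreviation that they do not explain.

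The mice were C57BL/6JCrl animals of 8 to 12 weeks, male unless stated otherwise, and those injured were fasted and then given APAP by intraperitoneal injection. No transgene or other agent is named for these sections, and whether the uninjured mice were fasted is not given in the sources used here. The methods count 1 mouse liver per time point for the mouse spatial data, so sections of a group may share a mouse. Every n below counts sections. Between time points the p-values measure only the spread between sections. Between spot classes, where the section is a block, they measure only how steady the class difference was from section to section. Neither measures the spread between mice, and mouse and time point cannot be told apart. All sections showed the same sex-linked pattern, with 2 Xist UMIs in all and 1141 to 2910 Eif2s3y UMIs per section, which bears on Gstp1 and other transferases that differ between male and female liver.

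Glutathione transferases join the thiol of glutathione to electrophiles, among them the quinone imine that cytochromes P450 make from APAP. Alpha, mu, pi and theta enzymes differ in substrate range, and several are transcribed under the oxidant-responsive transcription factor NRF2. In the healthy lobule many enzymes of drug metabolism are concentrated in pericentral hepatocytes, the cells that APAP kills first.

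The alpha genes Gsta1 (ENSMUSG00000074183, chr9:78230656-78242684, plus strand, GRCm38), Gm3776 (ENSMUSG00000111709, chr9:78257129-78269166, plus strand), Gsta4 (ENSMUSG00000032348, chr9:78182774-78209349, plus strand) and Gsta2 (ENSMUSG00000057933, chr9:78331018-78355788, minus strand) lie together, whereas Gsta3 (ENSMUSG00000025934, chr1:21240589-21265661, plus strand) stands on another chromosome. The mu genes Gstm3 (ENSMUSG00000004038, chr3:107963696-107969283), Gstm2 (ENSMUSG00000040562, chr3:107981702-107986453) and Gstm1 (ENSMUSG00000058135, chr3:108012255-108017973) form a minus-strand cluster. Gstp1 (ENSMUSG00000060803, chr19:4035407-4037985) and Gstt1 (ENSMUSG00000001663, chr10:75783813-75798584) are also on the minus strand. All 10 are annotated as protein-coding.

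Several members are near-copies, and the capture reads the transcript end, so the counts of some members are uncertain. Of the 50-base stretches in the last 300 bases of the annotated Gsta1 transcripts, 86.8% occurred unchanged in another gene, mainly Gm3776 and Gsta2. The share was 80.1% for Gm3776, 62.5% for Gsta2, 53.0% for Gstp1 (with Gstp2 and a pseudogene), 23.0% for Gstm1 and 8.61% for Gstm2. It was 0 for Gsta3, Gsta4, Gstm3 and Gstt1. Over 300 bases the ends of Gsta1 and Gm3776 were 99% identical, and those of Gsta1 and Gsta2 94.3%. Reads were assigned by the submitters' pipeline, and how it divided reads between such copies is not given in the sources used here.

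The likeness of Gsta1 and Gm3776 extends upstream of the gene. RefSeq promoter sequence (GRCm38.p6) was found for 9 of the 10 members, and the 250 bases before the start of Gsta1, Gm3776 and Gsta3 are shown because the first pair moved most after APAP and Gsta3 moved the other way. The first line is chr9:78230419-78230668, the second chr9:78256879-78257128 and the third chr1:21240335-21240584, each on the plus strand and read 5′ to 3′.
Gsta1: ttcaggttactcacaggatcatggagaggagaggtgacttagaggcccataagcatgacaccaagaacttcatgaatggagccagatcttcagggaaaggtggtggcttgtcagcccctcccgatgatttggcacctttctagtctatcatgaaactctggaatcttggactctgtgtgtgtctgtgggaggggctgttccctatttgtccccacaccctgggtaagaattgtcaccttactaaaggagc
Gm3776: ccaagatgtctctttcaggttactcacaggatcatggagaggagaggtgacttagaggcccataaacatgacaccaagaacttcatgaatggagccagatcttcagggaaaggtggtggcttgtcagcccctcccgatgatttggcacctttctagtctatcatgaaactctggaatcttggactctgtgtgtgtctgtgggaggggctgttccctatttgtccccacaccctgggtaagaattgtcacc
Gsta3: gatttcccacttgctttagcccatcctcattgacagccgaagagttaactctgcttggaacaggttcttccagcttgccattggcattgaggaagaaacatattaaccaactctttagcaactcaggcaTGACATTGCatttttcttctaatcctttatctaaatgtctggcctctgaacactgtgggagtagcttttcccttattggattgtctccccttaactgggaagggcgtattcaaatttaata
Aligned to each other, the Gsta1 and Gm3776 stretches were identical at 236 of 237 positions. Capitals mark TGACNNNGC, the core letters of the antioxidant response element through which NRF2 acts, searched on both strands from 250 bases before to 50 bases after each start. Of the 9 members with promoter sequence only Gsta3 held it, with its first base 121 bases before the start, against 4071 of 32851 promoters (12.4%) in all. A match is a description of the letters, and the lack of one in this window says nothing about the factor.

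Each section gave 31292663 to 67045372 UMIs (unique molecular identifiers, counts of captured transcripts) in 1490 to 3466 spots with at least 800 genes and at most 20% mitochondrial UMIs. The liver identity of the sections was plain from 10 hepatocyte genes (Alb, Apoa1, Ttr and others), which summed to 165879 to 173383 CPM at 0 h. CPM here are UMIs per 1000000 UMIs of a section after TMM scaling, in which most genes are taken as unchanged. Hepatocyte genes were lower and markers of other cells higher after APAP. At 48 h the hepatocyte sum was 104229 to 124578 CPM, the 4 myofibroblast markers summed to 483 to 1185 CPM against 37.5 to 45.9 CPM at 0 h, and the 6 macrophage markers to 785 to 1372 CPM against 451 to 490 CPM. The 5 neutrophil markers summed to 3.15 to 8.87 CPM at 0 h and to 24.8 to 138 CPM in the 8 injured sections, and the 5 cholangiocyte markers to 50.7 to 74.0 CPM at 0 h and 197 to 469 CPM at 48 h. The 5 endothelial markers were at 259 to 291 CPM at 0 h and 147 to 209 CPM after injury. The part of this changed makeup in the results below was not tested, and in section sums fewer hepatocytes and less RNA per hepatocyte cannot be told apart.

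After APAP the family moved in opposite directions. Gsta1 and its copy Gm3776, barely captured in uninjured liver, rose at all 3 injured time points, whereas Gsta3, Gstt1 and Gstm2 fell at all 3 after TMM scaling. With plain total-count scaling the calls of Gsta3 at 36 and 48 h and of Gstm2 at all 3 time points were lost. Gstp1 was higher at 24 h and lower at 48 h than in uninjured liver.

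**Figure D1:**
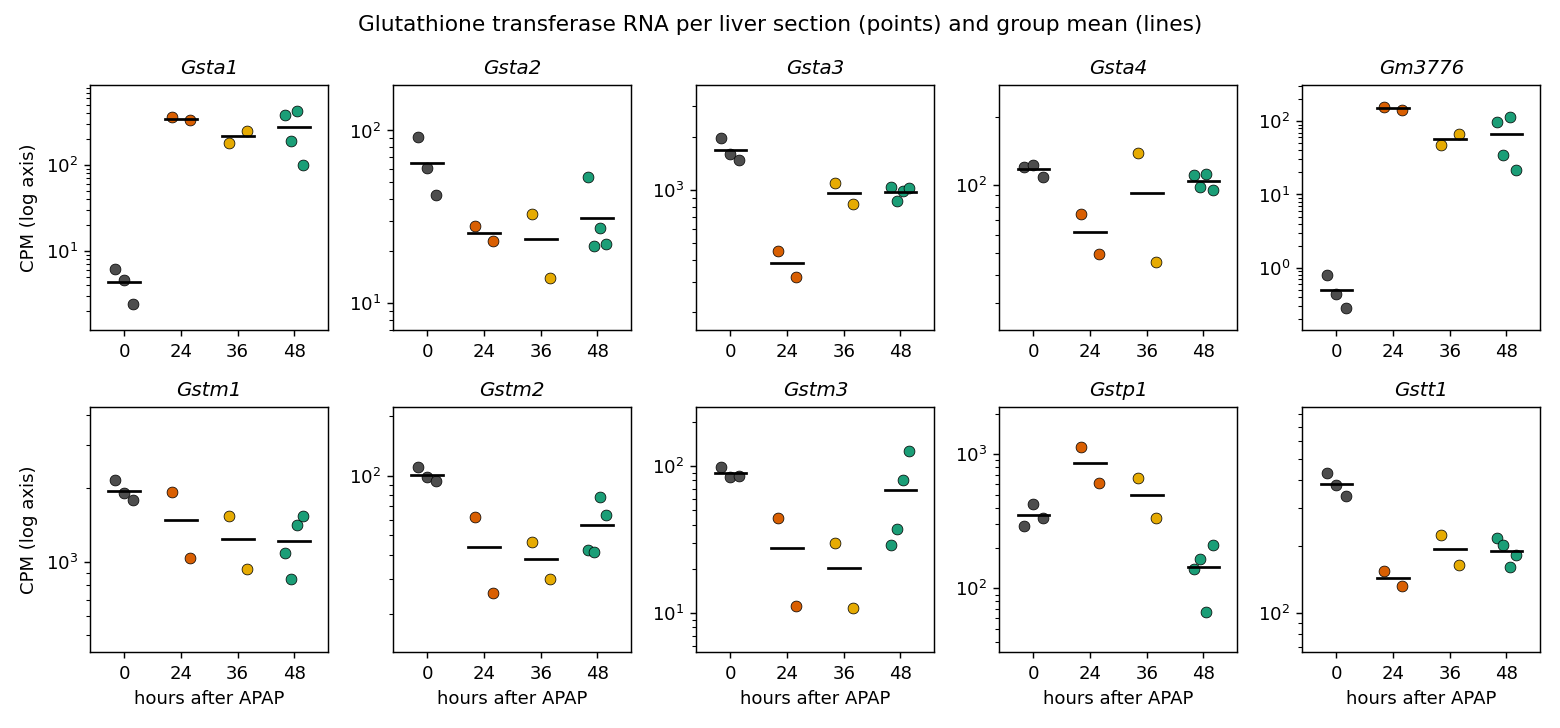
RNA of the 10 glutathione transferases in each liver section (points, CPM after TMM scaling, log axis with its own range in each panel) at 0, 24, 36 and 48 h after APAP, with group means as lines. Gsta1 and Gm3776 sit far above the uninjured sections at every later time, Gsta3 and Gstt1 below them, and Gstp1 passes from above at 24 h to below at 48 h.

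Gsta1, an alpha transferase known to be strongly inducible in mouse liver, was at 6.14, 4.53 and 2.37 CPM in the uninjured sections (279, 246 and 84 UMIs). It was at 360.0 and 337 CPM at 24 h, 181.5 and 249.5 CPM at 36 h and 385, 189.7, 430.0 and 100.5 CPM at 48 h. No injured section overlapped the uninjured ones, and section D at 48 h was the lowest of the 8. The log2 fold change against 0 h was 6.32 ± 0.64 (SE; adjusted p = 9.65e-05) at 24 h, 5.62 ± 0.62 at 36 h (adjusted p = 0.000531) and 5.98 ± 0.60 at 48 h (adjusted p = 8.44e-05), or 79.7-fold, 49.3-fold and 63.2-fold. These calls held in every alternative run, and the change from 24 to 36 h and from 36 to 48 h was not called.

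Gm3776, the near-copy of Gsta1, was at 0.792, 0.442 and 0.282 CPM at 0 h, from 36, 24 and 10 UMIs. It reached 156 and 143 CPM at 24 h, 47.2 and 66.7 CPM at 36 h and 96.7, 34.7, 113 and 21.7 CPM at 48 h, again with no overlap. Its log2 fold change was 8.18 ± 0.80, 6.78 ± 0.77 and 7.01 ± 0.75 (adjusted p = 8.98e-05, 0.000595 and 0.000113), which rests on few UMIs at 0 h. Within each time point its sections stood in the order of Gsta1, with C and A high and D low at 48 h. The balance of the pair nevertheless differed between time points. Gsta1 had 7.75, 10.3 and 8.40 UMIs per Gm3776 UMI at 0 h, 2.31 and 2.35 at 24 h, 3.84 and 3.74 at 36 h. At 48 h the ratio was 3.98, 5.47, 3.79 and 4.63. It was lowest in both 24 h sections, and every injured section lay below every uninjured section, a difference that was not tested.

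The third near-copy, Gsta2, did not follow them. It was at 91.8, 60.8 and 42.2 CPM at 0 h, 27.7 and 22.8 CPM at 24 h, 33.0 and 13.9 CPM at 36 h and 53.8, 21.5, 27.2 and 22.05 CPM at 48 h. The sections at 24 and 36 h lay below all uninjured ones, but the fitted differences of −1.36, −1.47 and −1.06 did not pass the test (adjusted p = 0.0542, 0.0541 and 0.0543). With Gsta1, Gsta2 and Gm3776 summed to 1 feature, which no division of reads among the 3 can affect, the sum rose by 2.91 ± 0.53 at 24 h, 2.08 ± 0.52 at 36 h and 2.42 ± 0.48 at 48 h on the log2 scale (adjusted p = 0.00194, 0.0156 and 0.0027). The 36 h call was lost without section 3 or 4 at 0 h or section B at 36 h. A further near-copy, Gm10639, held 39.4% of the Gsta2 end stretches and 5.59% of those of Gsta1. It was left out of the sum, so a division of reads with it can still affect the sum.

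Gsta3, the alpha transferase known for its activity towards aflatoxin epoxide in the mouse, went the other way. From 1972, 1586 and 1483 CPM in the uninjured sections it went to 449.9 and 317 CPM at 24 h. The 36 h sections had 1087 and 830.1 CPM and the 48 h sections 1032, 865, 983 and 1021 CPM. The injured sections all lay below the uninjured ones, with 24 h the lowest. On the log2 scale Gsta3 fell by 2.13 ± 0.20 at 24 h, which is 4.38-fold (adjusted p = 5.42e-05). Against uninjured liver it fell by 0.81 ± 0.19 at 36 h (adjusted p = 0.0107). The decrease at 48 h, 0.78 ± 0.15, was also called (adjusted p = 0.00221). Neither of the later calls held with total-count scaling (−0.37 and −0.26, adjusted p = 0.142 and 0.186), and the 36 h call was also lost without section B (−0.63, adjusted p = 0.073). It was also the single member to change between 24 and 36 h, with a log2 rise of 1.32 ± 0.21 (adjusted p = 0.00543). Where only the 24 and 36 h sections were fitted, that call was lost.

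Gstt1, the theta transferase that also handles small halogenated compounds, was at 429, 379 and 339 CPM at 0 h. It was at 154 and 132 CPM at 24 h, 226 and 164 CPM at 36 h and 217, 202, 162 and 183 CPM at 48 h, with no injured section reaching the lowest uninjured one. It fell by 1.42 ± 0.18, 0.97 ± 0.18 and 1.0 ± 0.14 on the log2 scale (adjusted p = 0.000227, 0.00354 and 0.000372).

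Of the mu genes, which encode broad-range conjugating enzymes, Gstm2 was lower at every injured time point. It was at 111, 99.1 and 93.9 CPM at 0 h, 62.1 and 25.8 CPM at 24 h, 46.2 and 30.3 CPM at 36 h and 42.1, 41.3, 78.6 and 63.6 CPM at 48 h, without overlap. It fell by 1.2 ± 0.39, 1.41 ± 0.39 and 0.85 ± 0.31 on the log2 scale (adjusted p = 0.03, 0.0237 and 0.0472), but these calls were lost in 5, 4 and 10 of 16 alternatives. With total-count scaling Gstm2 was at −0.87, −0.96 and −0.31 (adjusted p = 0.0901, 0.0661 and 0.403). Without section 2 or 3 at 0 h all 3 calls were lost (adjusted p = 0.0513 to 0.127). The 24 h call was lost without its section B (−0.71, adjusted p = 0.188) and the 36 h call without its section B (−1.13, adjusted p = 0.167), and the 48 h call was lost without any 1 of 8 sections. Gstm1 and Gstm3 did not pass the test at any time point, and within the injured groups their sections lay further apart than those of Gstt1. Gstm1 was at 2150.3, 1905 and 1781 CPM at 0 h, 1921 and 1032 CPM at 24 h, 1540.1 and 932 CPM at 36 h and 1084, 852, 1410.1 and 1537 CPM at 48 h (adjusted p = 0.339, 0.144 and 0.0571). Gstm3 was at 98.3, 84.0 and 85.2 CPM at 0 h, 44.3 and 11.2 CPM at 24 h, 29.8 and 10.8 CPM at 36 h and 28.8, 37.5, 80.3 and 126 CPM at 48 h (adjusted p = 0.0971, 0.0607 and 0.617). Section A lay above section B for all 3 mu genes at both 24 and 36 h. The other members had the same order, except Gsta1 and Gm3776 at 36 h, so it was not particular to the mu genes. At 48 h section D of Gstm3 lay above every uninjured section while section A lay far below them.

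Gstp1, the pi transferase, which has been studied for its part in APAP toxicity, was at 291, 424 and 335 CPM in uninjured liver. It stood above that in both 24 h sections (1122 and 608 CPM), on either side of it in the 36 h sections (665 and 333 CPM) and below it in all 48 h sections (139, 165, 67.0 and 210.3 CPM). It rose by 1.30 ± 0.44 at 24 h (adjusted p = 0.038), its difference of 0.51 ± 0.45 at 36 h was not called (adjusted p = 0.41), and it fell by 1.27 ± 0.37 at 48 h (adjusted p = 0.02). The 24 h call was lost in 7 of 16 alternatives, with the largest drop without section A at 24 h (0.80, adjusted p = 0.293). It was also lost without section 2, 3 or 4 at 0 h, without section A or B at 48 h and with no filter on low counts (adjusted p = 0.0513 to 0.117). The 48 h call was lost with total-count scaling (−0.75, adjusted p = 0.107) and without section 3 at 0 h (−1.11, adjusted p = 0.0701). Without section A at 36 h the 36 h value was −0.08. The decrease of 1.78 ± 0.41 from 36 to 48 h (adjusted p = 0.0489) was lost in 14 of 17 alternatives, including the removal of most single sections. Summing Gstp1 with its copy Gstp2 gave 1.31, 0.51 and −1.26 against 0 h. Gsta4, whose enzyme conjugates the lipid peroxidation product 4-hydroxynonenal, was at 121, 123 and 109 CPM at 0 h, 74.1 and 49.5 CPM at 24 h, 139 and 45.5 CPM at 36 h and 111, 97.9, 112 and 94.9 CPM at 48 h, and was not called at any time (adjusted p = 0.0654, 0.488 and 0.651).

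**Figure D2:**
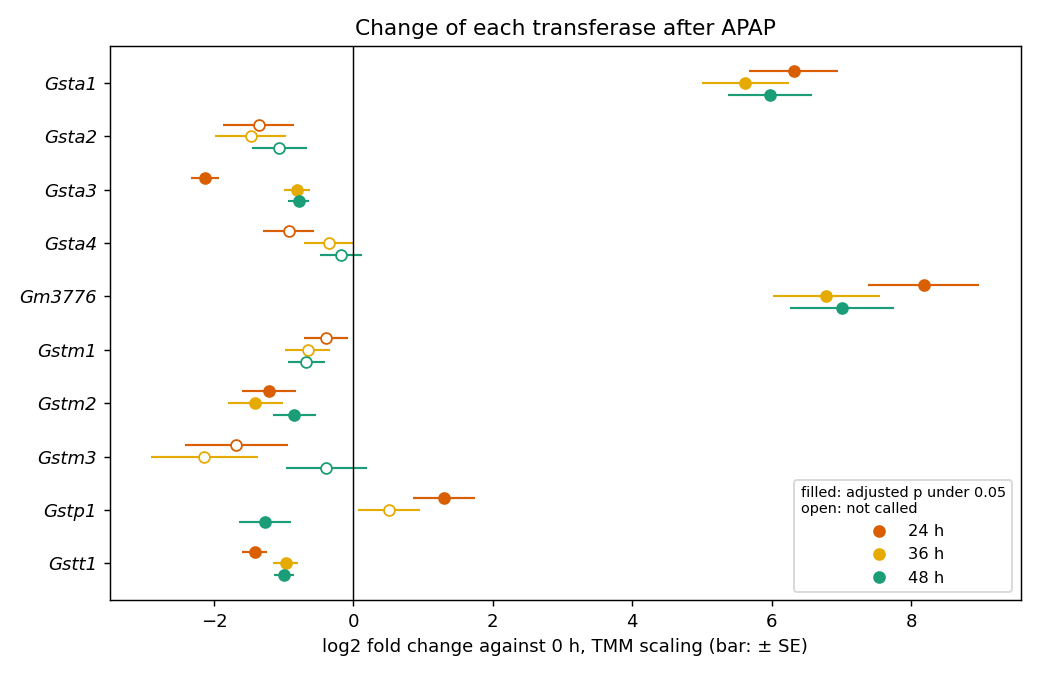
Log2 fold change of each transferase against 0 h at 24, 36 and 48 h (points, bars ± SE), filled where the edgeR adjusted p was under 0.05. Gsta1 and Gm3776 lie between 5.62 and 8.18, and the other points lie between −2.14 and 1.30.

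In counts, 24 h had 3 members higher and 3 lower than uninjured, 36 h had 2 higher and 3 lower, and 48 h had 2 higher and 4 lower. Over the 14821 genes tested, 23.1% were higher and 18.6% lower at 24 h, 16.8% and 12.4% at 36 h, and 23.3% and 20.9% at 48 h. Over so few members these shares are near the background. The median log2 difference of the 10 was −1.07, −0.73 and −0.73, against 0.05, 0.05 and 0.01 for all genes tested. From 24 to 36 h 1 member was higher and none lower (7.04% and 8.58% of all genes), and from 36 to 48 h none was higher and 1 lower (1.62% and 1.43%). With plain total-count scaling the median of all genes shifted upwards by 0.33, 0.44 and 0.53 against 0 h and the member split became 3 higher and 2 lower, 2 and 1, and 2 and 1. Under it Gsta1, Gm3776 and Gstt1 were still called at all 3 time points and Gsta3 at 24 h (−1.80). The UMIs of the 10 members together came to 4737 ± 503 CPM in uninjured liver (SD, n = 3). The sum was 3526 ± 1195 after 24 h (n = 2), 3335 ± 933 after 36 h (n = 2) and 3135 ± 434 CPM after 48 h (n = 4).

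The rest of the glutathione pathway was read from lists of genes by role. For comparison, 23.1% of all genes tested were higher and 18.6% lower at 24 h. The shares were 16.8% and 12.4% at 36 h, and 23.3% and 20.9% at 48 h. Of 19 other transferase genes 18 were tested, and 3 were higher and 10 lower at 24 h, 2 and 7 at 36 h and 2 and 8 at 48 h, with a median log2 difference of −0.89, −0.30 and −0.61. The 12 genes named here from all pathway lists are those with the largest called changes among genes of at least 10 CPM. Microsomal Mgst1 went from a mean of 7577 CPM at 0 h to 2554, 2648 and 3254 CPM (log2 −1.57, −1.52 and −1.22, all called). The mu gene Gstm6 (log2 −2.08, −2.17 and −1.82), Gstm7 (−1.38, −1.26 and −0.84), Gstm4 (−1.0, −1.06 and −1.02) and the mitochondrial Gstk1 (−1.11, −0.69 and −0.58) were lower at all 3 time points. The theta genes Gstt3 (−2.56) and Gstt2 (−1.61) were lower at 24 h, and Gstp3 was lower only at 48 h (−1.07; whether its times differ was not tested).

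Of 11 genes of glutathione synthesis and recycling, 3 were higher and 3 lower at 24 h, 1 and 2 at 36 h, and 2 and 2 at 48 h. For a list this short these counts are near the shares of all genes given above. Cth, which makes cysteine from cystathionine, was at 329.9 CPM at 0 h and 51.6 CPM at 24 h (log2 −2.68, adjusted p = 5.49e-05) and at 247 CPM at 48 h. Of 12 tested genes of conjugate export and breakdown, 5 were higher and 3 lower at 24 h, 5 and 1 at 36 h, and 4 and 1 at 48 h. Of 7 NRF2 targets outside glutathione metabolism 5, 4 and 4 were higher and none lower. Srxn1, which repairs over-oxidized peroxiredoxins, went from 28.9 CPM to 239, 100.3 and 91.3 CPM (log2 3.05, 1.79 and 1.66). Hmox1, the haem oxygenase, rose by 2.39, 1.47 and 2.30, and the quinone reductase Nqo1 by 1.62, 0.94 and 1.13. The median of this list was 1.62, 0.94 and 1.13, and Srxn1 was highest at 24 h, as Gsta1 and Gm3776 were in group means.

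The genes whose course over the 11 sections was nearest to each member were sought among 7071 expressed genes by the root mean square of the log2 difference after centring. Nearest to Gsta1 were Timp1, an inhibitor of matrix proteases (0.783), the chemokine Ccl7 (0.793) and the matrix protein gene Tnc (0.888), and nearest to Gm3776 was Timp1 (0.819), against 0.646 between the pair. Nearest to Gstt1 were the peroxisomal gene Phyh (0.0818), Nit2 (0.109) and Bphl (0.113), and nearest to Gsta3 were Dpp4 (0.196) and the urea cycle gene Otc (0.201). Cyp1a2, a central cytochrome, was nearest to Gstm3 (0.50), and the activin subunit gene Inhbe was nearest to Gstp1 (0.602).

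The lobular position of the members in uninjured liver was read from spot scores that held no member. Within each 0 h section spots were ranked by the mean of 20 central genes minus that of 12 portal genes, none of them a transferase, and the portal-most and the central-most of 3 equal parts were compared. Both lists, apart from the removal of the transferases, were chosen by the study on its own spatial data and included Gsta3 and Gstm1 among the central genes, so the zonation of those members is not independent evidence. Markers outside the score differed too, with cholangiocyte markers at 81.3 to 115 CPM in portal and 12.2 to 17.3 CPM in central spots.

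Gstm2 and Gstm3 were the most central members. In sections 2, 3 and 4 Gstm2 was at 141, 125 and 119 CPM in central and 46.3, 44.2 and 41.9 CPM in portal spots (log2 1.54 ± 0.04, adjusted p = 3.64e-28). Gstm3 was at 120.3, 103 and 112 CPM in central and 44.9, 41.7 and 35.9 CPM in portal spots (log2 1.44 ± 0.04, adjusted p = 3.38e-20). The classes did not overlap for either gene. Gsta3, at 1930, 1596 and 1564 CPM in central and 1169, 936 and 803 CPM in portal spots (0.82 ± 0.04, adjusted p = 3.86e-08), and Gstm1 (0.56 ± 0.02) followed, and Gstt1 had a shallow gradient of the same sign (0.20 ± 0.03, adjusted p = 1.84e-07).

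Portal-most were Gsta2, at 94.1, 57.4 and 41.4 CPM in portal and 54.6, 41.3 and 26.8 CPM in central spots (−0.64 ± 0.05, adjusted p = 6.21e-12), and Gstp1, at 284, 405 and 304 CPM in portal and 174, 269 and 219 CPM in central spots (−0.59 ± 0.03, adjusted p = 5.76e-14). Gsta1 (−0.57 ± 0.14, adjusted p = 0.0027) and Gsta4 (−0.21 ± 0.03, adjusted p = 1.3e-05) had the same sign, Gsta1 from 1.14 to 5.85 CPM per class. In all, 5 members were central and 4 portal among the 9 tested, while Gm3776 had too few UMIs, against 11.4% and 12.6% of all 12306 genes tested. The 5 central members include Gsta3 and Gstm1, which the study's central list held, so the count is not independent of that list. All 9 calls held in the 7 alternatives tried, total-count scaling among them (5 and 4).

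**Figure D3:**
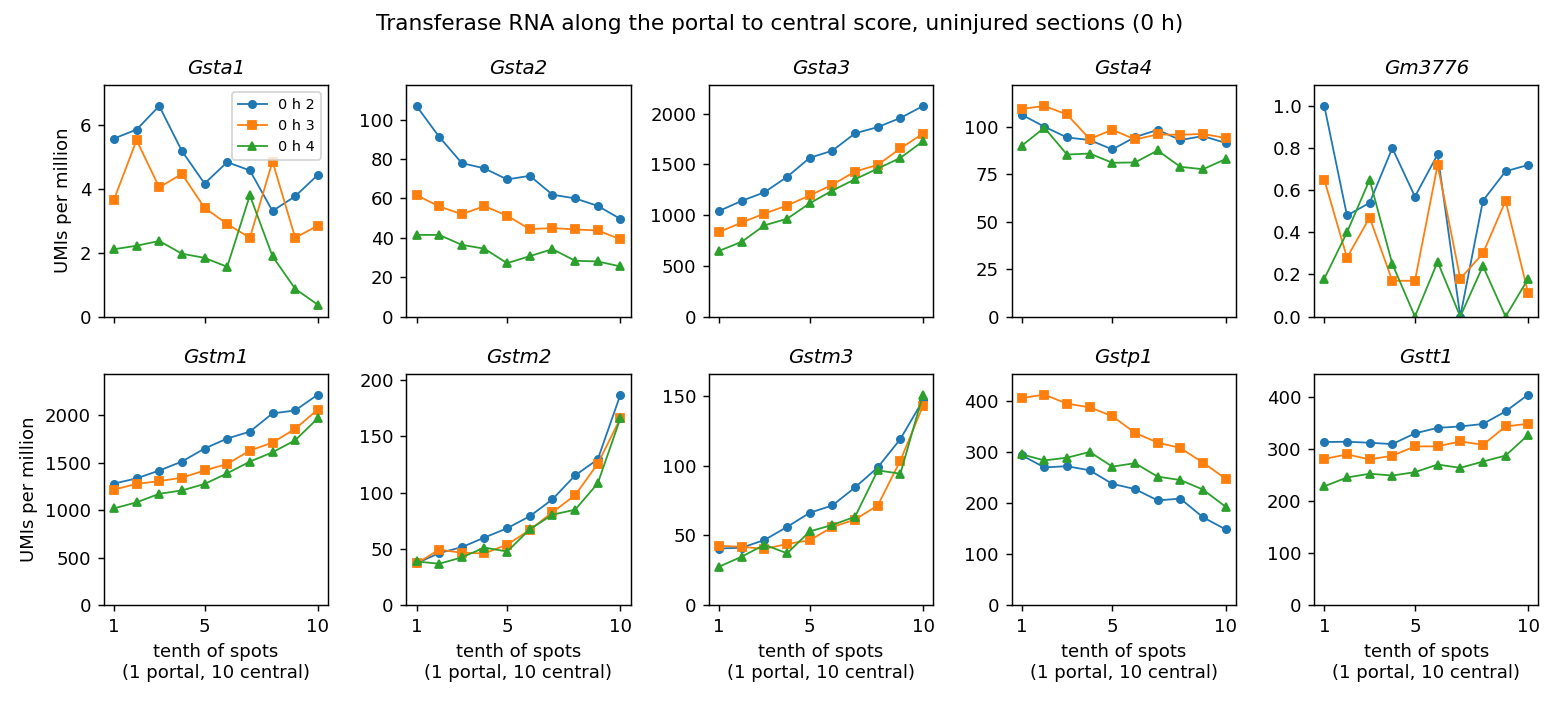
RNA of each transferase (UMIs per 1000000) in 10 equal parts of the spots of each uninjured section, ordered from portal (1) to central (10) by a score without transferases. Each line is a section. Mean Gstm2 runs from 37.7 to 173 and Gstp1 from 332 to 197.

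For the comparison over time the spots of all 11 sections were ranked by the 12 portal genes alone. The portal-poor and the portal-rich of 3 equal parts of each section were compared. Portal-poor spots held fewer hepatocyte transcripts and more of other cells: at 48 h the hepatocyte genes summed to 69784 to 87803 CPM in them against 140960 to 162280 CPM in portal-rich spots, myofibroblast markers to 825 to 2028 against 202 to 539 CPM, macrophage markers to 1230 to 2309 against 431 to 771 CPM and neutrophil markers to 56.8 to 178 against 17.9 to 57.4 CPM. At 0 h the hepatocyte sums were 149374 to 157474 and 177970 to 187909 CPM. The 5 cholangiocyte markers, which mark portal tracts, were lower in portal-poor spots at 0 h (16.8 to 33.4 against 87.2 to 127 CPM), 24 h (63.8 to 98.8 against 180.0 to 242 CPM) and 36 h (92.6 to 152 against 135 to 179.9 CPM). At 48 h they were higher in the portal-poor spots of all 4 sections (289, 443, 639 and 416 against 131, 205, 378 and 254 CPM), so at that time these markers went against the name of the class. Endothelial markers were at 181 to 207 and 159 to 199 CPM in the respective classes at 48 h. The part of these cells in the differences below was not tested.

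The induced pair was higher in portal-poor than in portal-rich spots at all 3 injured time points, least firmly at 24 h. Gsta1 was at 519 and 488 CPM in the portal-poor and 179 and 174 CPM in the portal-rich spots of the 24 h sections (1.51 ± 0.28, adjusted p = 0.00553). It was at 299 and 316 CPM against 74.3 and 185 CPM at 36 h (1.36 ± 0.29, adjusted p = 0.0107). At 48 h it was at 602, 308, 609 and 149 CPM against 165, 71.8, 249.7 and 52.5 CPM (1.68 ± 0.20, adjusted p = 0.000137). Portal-poor spots were higher in each of the 8 injured sections. Even the portal-rich spots stayed above all uninjured values, which were 1.24 to 7.05 CPM. Spots outside the tissue held Gsta1 at 0.821 to 1.17 times its on-tissue share of UMIs in the injured sections. The part of RNA captured outside its own spot in the portal-rich values was not tested. Gm3776 was likewise higher in portal-poor spots, with 1.55 ± 0.27, 1.24 ± 0.31 and 1.76 ± 0.21 (adjusted p = 0.00422, 0.021 and 0.000135). At 24 h both calls were lost when 8 other portal markers ranked the spots (0.71 and 0.72, adjusted p = 0.108 and 0.0613). The Gsta1 call was lost there without section A or B (adjusted p = 0.0659 and 0.0658), and that of Gm3776 without section B (adjusted p = 0.0627) and, at 36 h, without section A (0.68, adjusted p = 0.152). At 0 h neither was called (Gsta1 −0.64, adjusted p = 0.592; Gm3776 −0.22, adjusted p = 0.964).

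**Figure D4:**
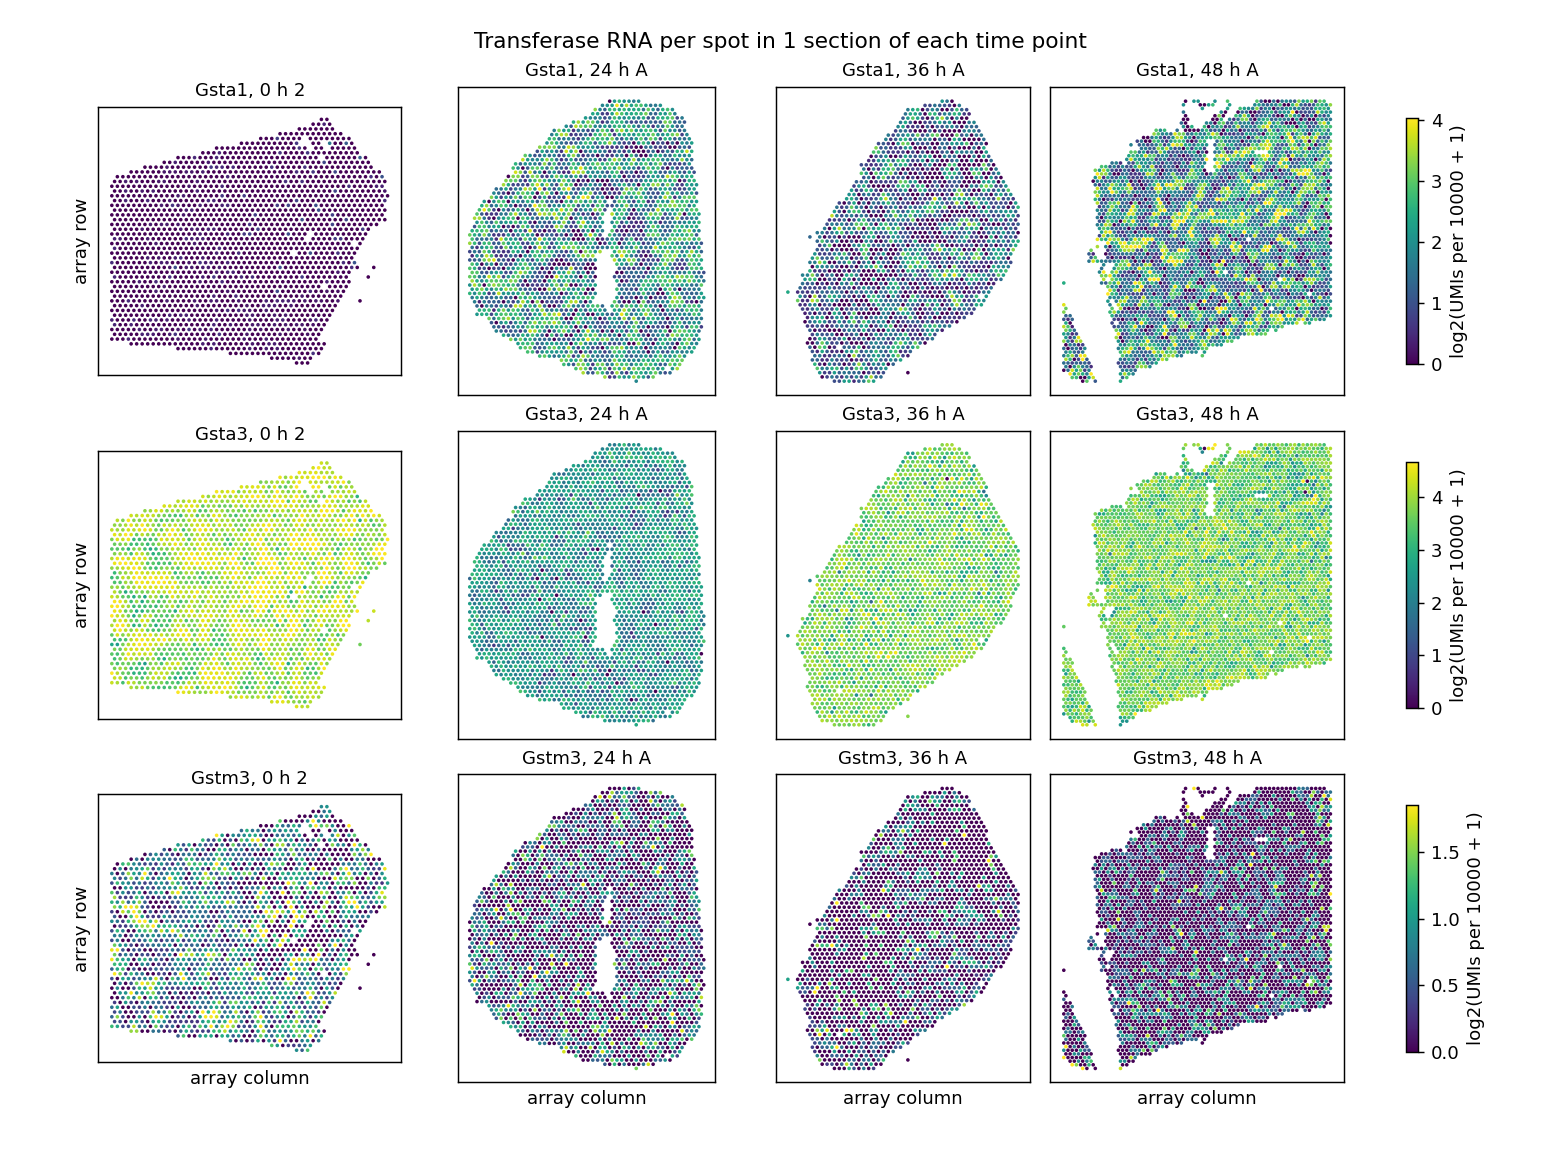
UMIs per 10000 of Gsta1, Gsta3 and Gstm3 in each spot of a section per time point (section 2 at 0 h and sections A later; log2(x + 1), colour capped at the 99th percentile of all spots drawn). In the sections drawn, Gsta1 is dark throughout at 0 h and patchy and bright later, and Gsta3 is dimmest at 24 h. Gstm3 lacks in the sections drawn after APAP the bright zones it has at 0 h. Section A had the lowest Gstm3 of the 48 h sections (28.8 CPM), and section D, not drawn, the highest (126 CPM).

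Gsta3 changed side. Its portal-poor spots were higher at 0 h (0.74 ± 0.07) and 24 h (0.32 ± 0.09) and lower at 36 h (−0.43 ± 0.09) and 48 h (−0.47 ± 0.06), all called (adjusted p = 1.26e-07, 0.00986, 0.000707 and 7e-07). At 48 h it was at 838, 739, 723 and 883 CPM in portal-poor and 1195, 910.5, 1234 and 1080.5 CPM in portal-rich spots, lower in each of the 4 sections. Gstt1 likewise went from 0.19 ± 0.06 at 0 h to −0.34 ± 0.07, −0.31 ± 0.07 and −0.63 ± 0.05 (adjusted p = 0.0303, 0.000913, 0.00212 and 3.46e-11). With total-count scaling the later values of Gsta3 (−0.17 and −0.07, adjusted p = 0.0926 and 0.245) and those of Gstt1 at 24 and 36 h (−0.08 and −0.05, adjusted p = 0.386 and 0.599) kept their sign but were not called. The 24 h value of Gsta3 was not called without section A or B (adjusted p = 0.195 and 0.0523), nor that of Gstt1 without section B (adjusted p = 0.0678). The Gstt1 call at 0 h was lost without any of the 3 sections there, and that at 36 h without section A (adjusted p = 0.0871).

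The mu genes differed among themselves. Gstm2 was higher in portal-poor spots by 1.38 ± 0.09 at 0 h, 0.45 ± 0.13 at 36 h and 0.66 ± 0.08 at 48 h (adjusted p = 1.9e-09, 0.0133 and 4.17e-07), with a value of −0.20 ± 0.12 that was not called at 24 h. Gstm3 was higher at 0 h (1.26 ± 0.14) and 36 h (0.89 ± 0.24), and its values of 0.27 ± 0.22 and 0.05 ± 0.12 at 24 and 48 h were not called. Gstm1 was higher at 0, 24 and 36 h (0.50 ± 0.09, 0.48 ± 0.11 and 0.49 ± 0.11), and the value at 48 h, −0.15 ± 0.08, was not called. The 36 h calls of all 3 were lost without section A (0.27, 0.30 and 0.17 for Gstm2, Gstm3 and Gstm1, adjusted p = 0.468, 0.619 and 0.25), that of Gstm2 also without section B (adjusted p = 0.0676), and the 24 h call of Gstm1 without section A (adjusted p = 0.0885). Gstp1 was lower in portal-poor spots at 0 h (−0.51 ± 0.09) and, with TMM scaling, at 48 h (−0.29 ± 0.08), and was not called between. With total-count scaling its 48 h value turned to 0.10 (adjusted p = 0.339).

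At 24 h the portal-poor spots were also higher in Gsta2 (1.36 ± 0.30, adjusted p = 0.0118) and Gsta4 (1.0 ± 0.15, adjusted p = 0.000283). Gsta2, with the opposite sign at 0 h (−0.58, not called), was lower in them at 48 h (−0.54 ± 0.16, adjusted p = 0.0194). The Gsta2 call at 24 h was lost without section A or B (adjusted p = 0.108 and 0.0997). That at 48 h was lost with total-count scaling (−0.13, adjusted p = 0.51) and without section A (−0.32, adjusted p = 0.163), B or D (adjusted p = 0.0821 and 0.0777). The 24 h pattern depended on the genes that ranked the spots. With 8 other portal markers (Ass1, Arg1, Cps1 and others) 1 member, Gsta4, was called at 24 h instead of 7, and Gsta2 was at 0.65 (adjusted p = 0.179). At 36 and 48 h the same markers gave 6 and 7 calls, with Gsta1 at 1.05 (adjusted p = 0.0179) and 1.45 (adjusted p = 0.000121).

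**Figure D5:**
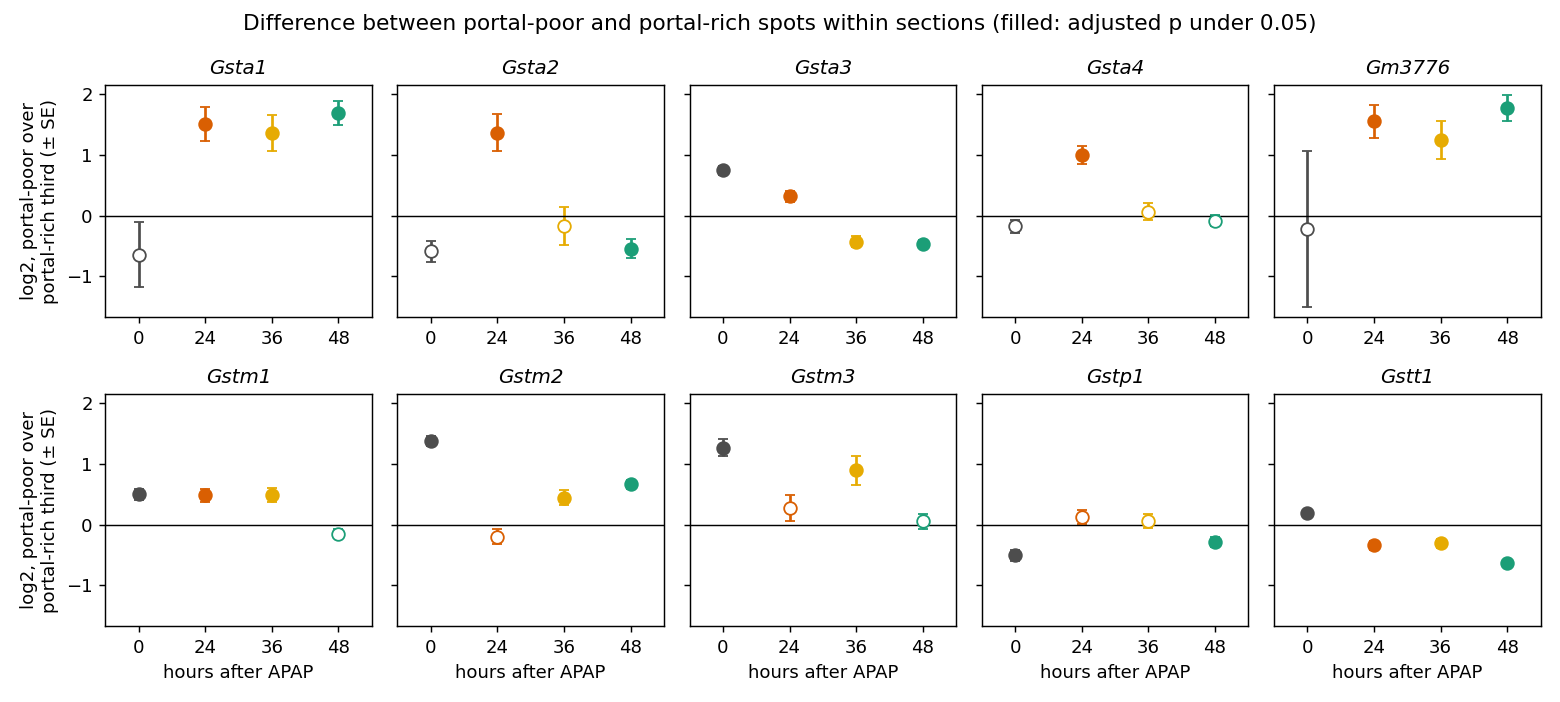
Log2 difference between portal-poor and portal-rich spots within sections for each transferase at 0, 24, 36 and 48 h after APAP (points, bars ± SE), filled where the edgeR adjusted p was under 0.05. Gsta1 and Gm3776 are above 1 at all injured time points, and Gsta3 and Gstt1 pass from above to below 0.

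In counts, 5 members were higher and 1 lower in portal-poor spots at 0 h (5.12% and 5.08% of the 14012 genes tested), 6 and 1 at 24 h (13.6% and 15.2%), 5 and 2 at 36 h (14.2% and 14.8%) and 3 and 4 at 48 h (35.2% and 30.5%). The higher share lay above the background at 0, 24 and 36 h and close to it at 48 h. The 5 at 0 h include Gsta3 and Gstm1, which the study had listed as central genes on its own spatial data. Without section A or section B at 24 h 3 and 2 members were called there, and without section A at 36 h 3 were. With total-count scaling, which moved the median of all genes by 0.04, 0.26, 0.26 and 0.40, the splits were 5 and 1, 7 and 0, 5 and 0, and 6 and 1. Tested against the 0 h difference, 4 members moved up and 4 down at 24 h (7.05% and 10.1% of all genes), 1 and 3 at 36 h (8.14% and 11%), and 1 and 5 at 48 h (21.6% and 23.9%). With total-count scaling these became 4 and 2, 2 and 3, and 3 and 5. The decreases at 48 h were those of Gsta3, Gstm1, Gstm2, Gstm3 and Gstt1, the 5 members that were central in uninjured liver, and the increase was that of Gsta1. Both statements rest on the same 0 h sections. Among the 7 NRF2 targets outside glutathione metabolism, 6 were higher and none lower in portal-poor spots at 24 h and at 36 h, and 6 were higher and 1 lower at 48 h. Srxn1, for instance, was higher by 1.52, 1.14 and 1.04 and Hmox1 by 0.85, 1.21 and 1.97, whereas neither was called at 0 h (−0.03 and −0.16).

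Spots poorest in hepatocyte transcripts were then set against spots rich in them, as the lowest 10% and the highest 50% of each section by the 10 hepatocyte genes. At 48 h macrophage markers summed to 1982 to 3954 CPM in the former and 466 to 848 CPM in the latter, and myofibroblast markers to 1426 to 3534 and 229 to 648 CPM. Cholangiocyte markers summed to 417 to 807 and 133 to 377 CPM there. These classes share spots with the portal classes. At 48 h 25.8% to 27.6% of the portal-poor spots of a section were in the lowest 10%, against at most 0.403% of its portal-rich spots. The differences below are therefore not independent of those between portal classes. Gsta1 was higher in hepatocyte-poor spots by 1.03 ± 0.29 at 24 h, 1.1 ± 0.30 at 36 h and 1.14 ± 0.21 at 48 h (adjusted p = 0.03, 0.0251 and 0.00144), with 689, 316, 519.8 and 149 CPM against 236, 119, 337 and 74.3 CPM at 48 h. Gm3776 was higher by 1.08 ± 0.25, 1.22 ± 0.28 and 1.17 ± 0.19. Both 24 h calls were lost without section A or B (adjusted p = 0.0906 to 0.225), and both 36 h calls without section A (0.53 and 0.72, adjusted p = 0.241 and 0.105). Of the other 8 members 7 were lower in the same spots at 48 h. Gstm2 was the exception, at 59.0 ± 14.1 against 55.8 ± 21.3 CPM (SD, n = 4), with a difference of 0.11 ± 0.07 that was not called (adjusted p = 0.178). Gsta3 was at 546, 483, 437 and 566 CPM in them against 1326, 1063, 1334 and 1239 CPM (−1.29 ± 0.07, adjusted p = 1.02e-17), and Gstt1 (−0.96 ± 0.06), Gstm3 (−0.95 ± 0.08), Gsta2 (−0.81 ± 0.10), Gstm1 (−0.75 ± 0.07), Gstp1 (−0.72 ± 0.10) and Gsta4 (−0.34 ± 0.07) were lower too.

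Of the 10 members 3 were higher and 2 lower in hepatocyte-poor spots at 0 h (0.953% and 1.72% of the 13950 genes tested), 4 and 2 at 24 h (13.8% and 18.3%), 2 and 2 at 36 h (16.1% and 17.7%) and 2 and 7 at 48 h (35.6% and 32.5%). The share lower at 48 h, 7 of 10, lay above the background. At 0 h the classes were less distinct, with hepatocyte genes at 146234 to 161738 and 184885 to 191808 CPM. Markers of other cells overlapped between them, for instance macrophage (407 to 560 and 488 to 524 CPM) and neutrophil markers (2.65 to 8.90 and 3.81 to 9.82 CPM). Of the score genes Alb (log2 −0.67) and Trf (−0.37) were lower in central than in portal spots, and Apoa2, Apoh and Rbp4 slightly higher (0.10 to 0.11). The 0 h calls and lobular position cannot be told apart. The members called at 0 h were Gstm2, Gstm3 and Gsta3 (higher) and Gsta2 and Gstp1 (lower). The calls of Gsta3, Gstp1 and Gsta2 were lost in 9, 8 and 4 of 14 alternatives, and those of Gstm2 and Gstm3 held in all. Total-count scaling, under which the median of all genes moved by 0.10, 0.40, 0.40 and 0.55, gave 3 and 0, 6 and 1, 6 and 1, and 4 and 5, and under it the sign of Gsta4 at 48 h turned to 0.21 (adjusted p = 0.0113) and Gstp1 was not called there (−0.17, adjusted p = 0.184).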

How the data were processed

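The authors deposited raw UMI counts for 4992 spot barcodes and 31053 genes per section, per the labels from Space Ranger 1.0.0 against mm10, with Seurat 4.1.1 named in the submitters' processing notes. How reads were divided between near-identical genes is not given in the sources used here. Spots over tissue with at least 800 genes and at most 20% mitochondrial UMIs were summed per section or spot class. Spot scores were means of ln(1 + UMIs per 10000) on spots thinned to 2000 UMIs (seed 11), so that depth did not rank the spots. Spots are parts of a section and were not taken as replicates. Groups came from the labels.

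Differences were tested with edgeR 4.0.16 in R 4.3.3 (limma 3.58.1): quasi-likelihood, robust, TMM, filterByExpr, two-sided, Benjamini-Hochberg over all genes tested in a contrast and called at an adjusted p under 0.05. All 11 sections entered the fits between time points. Fits between spot classes had the section as a block, and those after injury also tested the class difference against that at 0 h. The fits were first tested on simulated counts. In whole-section sums counting error is small beside the spread between sections at this depth, except for Gsta1 and Gm3776 at 0 h. Spot classes hold fewer UMIs, so this does not extend to them. Alternatives were total-count scaling, DESeq2 1.42.0, no filter on low counts, all spots over tissue, fits of only the groups compared, each section left out in turn, a replicate block, summed copies, other class sizes, unthinned scores and other zonation markers. Sequence and positions came from RefSeq (GRCm38.p6) and a GRCm38 annotation.

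The members and gene lists were chosen with earlier results of these data known. All members are named, and beside them the 12 genes of the pathway lists with at least 10 CPM in some group and the largest called change against 0 h, and the genes nearest in course to a member by root mean square log2 difference. Protein sequences were not used here.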

Additional observations from a re-analysis of the deposited data

Results flagged for a closer look

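For several members the difference between portal-poor and portal-rich spots changed after injury by a test of the difference itself, with edgeR adjusted p over all genes tested and values given as the log2 difference at that time minus that at 0 h. At 24 h these were Gsta1 (2.15, adjusted p = 0.0468, a call lost in 8 of 11 fits that each left out 1 section), Gsta2 (1.95, adjusted p = 0.00747), Gsta4 (1.18, adjusted p = 0.000965) and Gstp1 (0.63, adjusted p = 0.00806), which moved towards portal-poor spots. Gstm2 (−1.58, adjusted p = 2.4e-06), Gstm3 (−1.0, adjusted p = 0.0253), Gstt1 (−0.53, adjusted p = 0.000274) and Gsta3 (−0.43, adjusted p = 0.0116) moved away from them. The Gsta1 call was lost without section 2, 3 or 4 at 0 h, A or B at 24 h, or A, C or D at 48 h (adjusted p = 0.053 to 0.146). The Gstm3 call was lost with total-count scaling and without section 2, 3 or 4 at 0 h or section A at 24 h (−0.36 without A, adjusted p = 0.59). Without section A or B at 24 h that of Gsta2 was lost (adjusted p = 0.0583 and 0.0628). That of Gstp1 was lost without section A at 24 h (adjusted p = 0.0793), and that of Gsta3 with total-count scaling and without section B at 24 h or section 4 at 0 h (adjusted p = 0.145 and 0.0571).

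At 36 h Gstp1 (0.57, adjusted p = 0.0135) moved towards portal-poor spots, and Gsta3 (−1.17, adjusted p = 4.44e-07), Gstm2 (−0.93, adjusted p = 0.000302) and Gstt1 (−0.50, adjusted p = 0.000363) moved away. The Gstp1 call at 36 h was lost without section A at 36 h or C at 48 h (adjusted p = 0.129 and 0.0581), and that of Gstm2 without section B at 36 h (adjusted p = 0.0513). At 48 h Gsta1 (2.32, adjusted p = 0.0113) moved towards them, and Gsta3 (−1.21, adjusted p = 6.89e-10), Gstm3 (−1.21, adjusted p = 0.000313), Gstt1 (−0.82, adjusted p = 2.1e-09), Gstm2 (−0.72, adjusted p = 4.7e-05) and Gstm1 (−0.64, adjusted p = 0.00027) moved away. With 8 other portal markers the 24 h values of Gsta1 (1.1, adjusted p = 0.406) and Gsta2 (1.03, adjusted p = 0.129) were not called.

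Spots outside the tissue, which entered no comparison, held 10.7% to 24.9% of each section's UMIs, and all 10 members were present there. In the injured sections the UMIs per 1000000 of a member off tissue were 0.375 to 1.46 times those on tissue. The part of RNA captured outside its own spot in the differences between spot classes was not tested. Of the pair that rose, Gsta1 reached at least 133 UMIs per 1000000 off tissue in the injured sections against at most 5.16 in the uninjured ones, and Gm3776 at least 27.3 against at most 0.861. Among the 10 sets of 4 sections at 48 h, none held a section flagged by a Dixon gap test (0 of 10). With 4 sections this test flags only a very wide gap, and the sets could still spread widely, as Gstm3 did from 28.8 to 126 CPM.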

How the results depend on the processing

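With 2 to 4 sections a group and an unknown number of mice, the fits resolve large differences better than small ones, and the uninjured levels of Gsta1 and Gm3776 rest on few UMIs. Of 97 called differences of single members, 54 kept their call in every alternative run, and 2 turned sign, both with total-count scaling: Gstp1 in portal-poor spots at 48 h (0.10) and Gsta4 in hepatocyte-poor spots at 48 h (0.21). The other turns of sign concerned differences that were not called. The cause of a lost call was not tested.

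With total-count scaling the members called numbered 3 at 36 h and 3 at 48 h against 0 h, 0 from 36 to 48 h, and 3 and 7 in hepatocyte-poor spots at 0 and 36 h, and the Gstp1 and Gstp2 sum was at −0.74 at 48 h against 0 h and −1.71 from 36 to 48 h. The sign turned for Gsta4 at 36 h (0.11) and 48 h (0.35) and Gstm3 at 48 h (0.14) against 0 h, Gsta2 from 24 to 36 h (0.013), and Gstm1 (0.064) and Gstt1 (0.054) from 36 to 48 h. It turned in portal-poor spots for Gstm2 at 24 h (0.057), Gsta2 at 36 h (0.12), and Gsta4 (0.31) and Gstm1 (0.25) at 48 h, and for the portal difference of Gstm1 against 0 h at 24 h (0.21) and 36 h (0.21). In hepatocyte-poor spots it turned for Gsta3 (0.24), Gstm1 (0.39), Gstm3 (0.10) and Gstp1 (0.27) at 24 h and for Gsta2 (0.40), Gsta4 (0.34) and Gstp1 (0.37) at 36 h.

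Without a filter on low counts no member was called from 36 to 48 h (0), the Gstp1 and Gstp2 sum was at 1.26 at 24 h and −1.76 from 36 to 48 h, and Gstm1 stood at 0.0073 from 36 to 48 h. DESeq2 gave 0.0032 for Gstm1 there. Fits of only the groups compared called 0 members from 24 to 36 h and 0 from 36 to 48 h, with the sum at −1.79. With 8 other portal markers 1 member was called in portal-poor spots at 24 h, and the portal difference of Gstm1 at 36 h (0.0044) and Gsta2 at 48 h (−0.059) turned. With 4 parts in place of 3 Gstm3 was at −0.021 in portal-poor spots at 48 h, and in the lowest 5% of spots by hepatocyte genes Gm3776 was at −1.50 at 0 h and Gsta2 at 0.070 at 36 h. With scores on all UMIs of a spot the portal difference of Gstm1 was at 0.00024 at 24 h and 0.018 at 36 h, and in hepatocyte-poor spots Gm3776 was at −2.03 at 0 h and Gsta2 (0.0081) and Gsta4 (0.029) turned at 36 h.

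Sections at 24, 36 and 48 h share letters, which were treated as names only. Deviations of same-letter sections correlated at 0.27 between 24 and 36 h, −0.119 and −0.113 between 24 and 48 h, and 0.0672 and −0.227 between 36 and 48 h. In a group of 2 sections the deviations mirror each other, so these values cannot settle whether the letters pair sections. With the letter as a replicate block 82 genes were called from 24 to 36 h, against 984 without it on the same sections, and 0 from 36 to 48 h against 7. No member was called (0 and 0), the Gstp1 and Gstp2 sum was at −1.60 from 36 to 48 h, and Gsta3 (−0.0084) and Gstt1 (0.12) turned there. Comparisons with 0 h could not be blocked, since those sections carry numbers.

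Leaving out each section in turn gave 3 to 7 called members at 36 h against 0 h (3 without 36 h B), 1 to 3 from 24 to 36 h (3 without 36 h B), 0 to 1 from 36 to 48 h, 2 to 7 in portal-poor spots at 24 h (3 without section A, 2 without B), 3 to 7 at 36 h (3 without A) and 4 to 8 for the portal difference at 24 h against 0 h (4 without 24 h A, 5 without 24 h B or 0 h section 4). In hepatocyte-poor spots it gave 2 to 5 at 0 h (2 without section 2, 3 or 4, 3 without 48 h B), 3 to 6 at 24 h (3 without A) and 2 to 5 at 36 h (2 without A). The Gstp1 and Gstp2 sum ran from 0.80 to 1.68 at 24 h, −0.070 to 0.93 at 36 h, −1.50 to −1.03 at 48 h and −2.20 to −1.20 from 36 to 48 h, and the sum of the 3 alpha copies from 1.83 to 2.41 at 36 h. Against 0 h at 36 h the range was −0.075 to 0.92 for Gstp1 and −1.37 to 0.24 for Gsta4. From 24 to 36 h it was −0.87 to 0.42 for Gsta2, −0.45 to 1.21 for Gsta4, −0.67 to 0.26 for Gstm1, −0.70 to 0.57 for Gstm2 and −1.37 to 0.85 for Gstm3. From 36 to 48 h it was −0.090 to 1.17 for Gsta2, −0.16 to 0.23 for Gsta3, −0.43 to 1.19 for Gsta4, −0.16 to 0.52 for Gm3776, −0.34 to 0.39 for Gstm1 and −0.25 to 0.22 for Gstt1. In portal-poor spots it was −0.0071 to 0.25 for Gstp1 at 24 h, −0.46 to 0.40 for Gsta2, −0.24 to 0.48 for Gsta4 and −0.032 to 0.16 for Gstp1 at 36 h, and −0.012 to 0.17 for Gstm3 at 48 h. For the portal difference against 0 h it was −0.081 to 0.054 for Gstm1 at 24 h, −0.32 to 0.32 for Gstm1 and −0.056 to 0.67 for Gsta4 at 36 h, and −0.15 to 0.27 for Gsta2 at 48 h. In hepatocyte-poor spots it was −0.14 to 0.37 for Gm3776 at 0 h, −0.10 to 0.055 for Gstm1 and −0.48 to 0.18 for Gstm3 at 24 h, and −0.24 to 0.37 for Gsta2, −0.26 to 0.20 for Gsta4, −0.048 to 0.34 for Gstm1, −0.088 to 0.62 for Gstm3 and −0.12 to 0.045 for Gstp1 at 36 h.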
